A study of Mus musculus with 6 samples.

Results

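The clustered protocadherins are a family of neural cell surface adhesion proteins whose genes lie side by side in an alpha, a beta and a gamma cluster. Their members were taken by symbol from the deposited count table (Pcdha or Pcdhac, Pcdhb, and Pcdhga, Pcdhgb or Pcdhgc, each followed by a number), which gave 58 of the 24503 gene symbols: 14 alpha, 22 beta and 22 gamma genes. RNA-seq was done on cultured neural stem cells taken from the brain cortex of E13.5 mouse embryos, enriched as neurospheres and then expanded on laminin with FGF at 10 ng/mL and EGF at 20 ng/mL. All 6 libraries carried Phf2 flox/flox. The 3 wild type (WT) libraries had no Cre, and the 3 knockout (KO) libraries also carried the Nestin-Cre transgene B6.Cg-Tg(Nes-cre)1Kln/J, in which Cre is driven by regulatory sequence of Nestin, a neural progenitor gene. No library carried Cre without the floxed alleles, so effects of the transgene and of the deletion cannot be told apart. Phf2 encodes a JmjC domain protein that reads methylated histone H3 and takes part in removing methyl groups from lysine 9 of histone H3. The comparison of KO with WT asks what the loss of Phf2 does to RNA levels in these cells.

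Clustered protocadherins form dimers on the cell surface and bind identical combinations on neighbouring cells, which gives a neuron a molecular identity used in self-avoidance of its branches, synapse formation and survival. Each alpha and gamma gene contributes 1 variable first exon with its own promoter, which encodes the extracellular cadherin repeats, the membrane span and part of the cytoplasmic tail, and is spliced to 3 constant exons shared by the whole cluster. Beta genes are single exons with no constant part. In neurons the alternate genes (numbered alpha, beta, gamma A and gamma B genes) are switched on in differing combinations in single cells, through CTCF, cohesin and distant enhancers, and their promoters are also held down by DNA methylation, by histone H3 lysine 9 methylation and by SMCHD1. The C-type genes at the ends of the alpha and gamma clusters (Pcdhac1, Pcdhac2, Pcdhgc3, Pcdhgc4 and Pcdhgc5) are expressed more uniformly.

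The libraries held between 33413444 and 46890314 counts assigned to genes. In the order WT 1, 2, 3 then KO 1, 2, 3, Phf2 was at 109, 90.4, 77.8, 56.3, 48.1 and 48.8 CPM (counts scaled to library size by TMM). The KO libraries were thus all lower, with a log2 difference of -0.84 ± 0.0743 (SE; edgeR adjusted p = 0.000123 with the replicate number as a block, 0.182 without it). The counts cover the whole gene and the sources used here do not name the deleted exons, so this value shows a reduced level and not the completeness of the deletion. Libraries numbered 1 stood apart from those numbered 2 and 3 in both genotypes, and 7879 of 13683 tested genes (57.6%) differed between number 1 and the others. The most similar replicates were KO 2 and KO 3. Neural stem cell genes were abundant, with a summed level of 11527 to 13391 CPM over 15 markers. Endothelial markers (3 of 7 tested) summed to 1.72 to 2.57 CPM and microglia markers (1 of 8 tested) to 0.421 to 1.22 CPM, with Cdh5, Aif1, Ptprc and C1qa at 0. By edgeR with the block or DESeq2 with it, 0 of these 4 markers were called, against 9.79% and 8.49% of all tested genes. With the block, 0 endothelial and 1 microglia marker had an unadjusted p under 0.05 by edgeR, against 3246 of all 13683 tested genes. Nothing in the labels ties each library to its own embryo or culture, so the p-values reflect the spread among these 6 libraries only, and that spread may be technical.

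The 3 clusters occupy 911.69 kb of the plus strand of chromosome 18 (mm10, the build in the submitters' processing notes; positions from GENCODE vM21 on GRCm38). Alpha spans chr18:36930184-37187661, beta chr18:37264938-37524479 and gamma chr18:37661793-37841873. In the longest coding transcript of each gene, 48.6 to 54.9% of the length of alpha members and 41.7 to 45.9% of that of gamma members lay in exons shared with other members. For those genes each deposited count includes reads from constant exons that RSEM had to divide among members, so the split between neighbouring alpha or gamma genes is uncertain. Beta genes share no exon by design, although the annotated exons of Pcdhb21 and Pcdhb22 overlapped neighbours over 9.67% and 6.88% of their lengths. The sources used here do not state whether the counting used strand.

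In these cells the gamma cluster made up nearly all clustered protocadherin RNA. Scaled to transcript length (RPKM, the CPM per kilobase of the longest coding transcript), gamma genes held 92.5% ± 1.56 (SD, n = 6 libraries) of the summed level, beta genes 6.65% ± 1.40 and alpha genes 0.844% ± 0.207. The order gamma, beta, alpha held in all 6 libraries. A single gene, Pcdhgc3, accounted for 82.4% ± 2.41 of the gamma total.

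**Figure D1:**
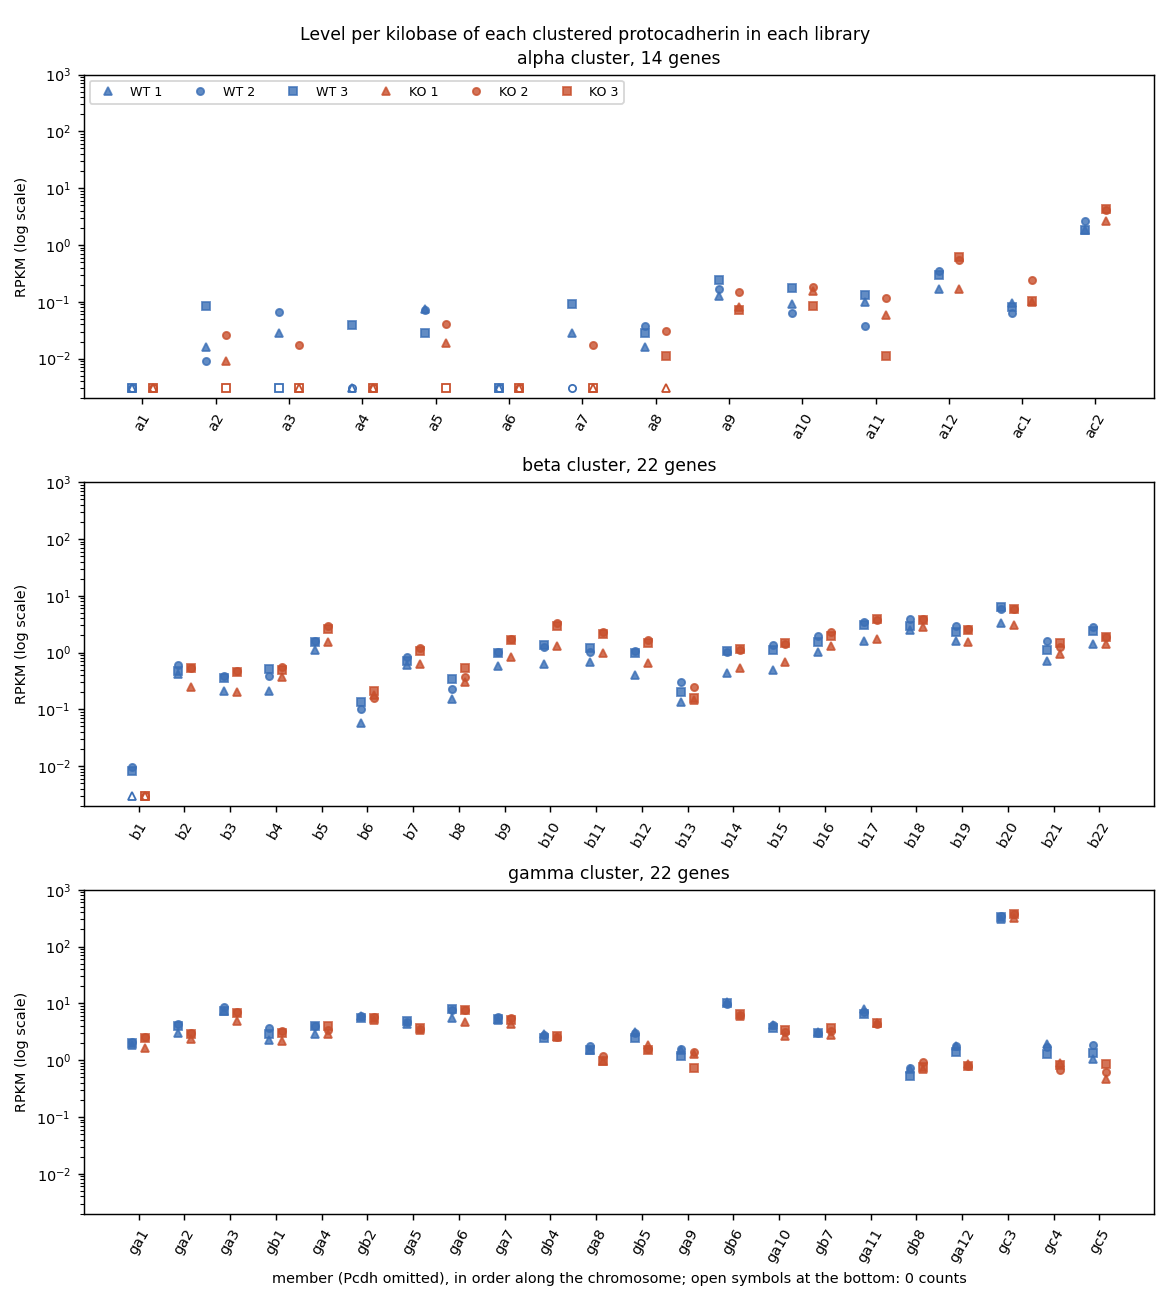
Level of every clustered protocadherin in each library, in RPKM on a log axis, with genes in chromosomal order within the alpha, beta and gamma clusters; points are single WT and KO libraries, and open points at the bottom are 0 counts. Pcdhgc3, with a mean of 342 RPKM, stands far above all other members, the highest of which, Pcdhgb6, averaged 8.19 RPKM.

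Pcdhgc3 is a C-type gene whose protein acts in dendrite growth and inhibits Wnt signalling. It was at 1420.0, 1642 and 1578 CPM in the WT libraries and at 1471, 1769 and 1730.15 CPM in the KO libraries. Both ranges overlapped, and the lowest library of each genotype was number 1. The mean level was 330 ± 24.3 RPKM (SD, n = 3) in WT and 353 ± 34.6 in KO, a log2 difference of 0.10 that did not pass the test (edgeR adjusted p = 0.438 with the block). Pcdhgc3 was 29.3 to 35.3 times as high as Pcdhgb6 per length in the WT libraries and 53.4 to 59.8 times in the KO libraries.

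Below Pcdhgc3, the other 21 gamma genes lay between 0.721 RPKM (Pcdhgb8, annotated as a polymorphic pseudogene) and 8.19 RPKM (Pcdhgb6). The highest gamma A genes were Pcdhga3 at 6.97, Pcdhga6 at 6.82 and Pcdhga11 at 5.76 RPKM, and the highest gamma B genes after Pcdhgb6 were Pcdhgb2 at 5.66 and Pcdhgb7 at 3.17 RPKM. The per-length ratio of Pcdhgb6 to Pcdhga3 ranged from 1.17 to 1.42 in WT and from 0.908 to 1.19 in KO, so the order of these neighbours in level was not the same in every library. The other C-type genes were low, with Pcdhgc4 at 1.21 and Pcdhgc5 at 1.04 RPKM, and their order also changed between libraries, with a ratio of 0.917 to 1.92. No gamma gene was at 0 in any library.

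Among beta genes the level was higher toward the downstream end of the cluster. Pcdhb20 led at 5.04 RPKM, followed by Pcdhb18 at 3.30 and Pcdhb17 at 2.88 RPKM, and Pcdhb20 was 1.11 to 2.11 times as high as Pcdhb18 in every library. The first 11 beta genes had a median of 0.469 RPKM and the last 11 a median of 1.69 RPKM. Across the 21 tested beta genes, position and level had a Spearman correlation of 0.67, a description across genes that share libraries and are not independent. Pcdhb1, the first gene, had at most 1 count in any library.

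The alpha cluster was nearly silent apart from its last gene. Pcdhac2, a C-type gene needed for the even spacing of serotonergic axons, was at 2.89 RPKM and held 74.4% ± 7.98 (SD, n = 6) of the alpha total per length. The next alpha genes were Pcdha12 at 0.359, Pcdha9 at 0.140 and Pcdha10 at 0.126 RPKM, and the C-type gene Pcdhac1 was at 0.115 RPKM. Pcdha1 and Pcdha6 had no count in any library, and the other 6 untested alpha genes, Pcdha2 to Pcdha5, Pcdha7 and Pcdha8, reached at most 0.487 CPM (Pcdha7 in WT 3). Only 6 of 14 alpha genes passed the filter on low counts, against 21 of 22 beta genes and all 22 gamma genes, so 49 members were tested.

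With the replicate number as a block, 16 of 49 tested members (32.7%) passed the edgeR test at an adjusted p under 0.05, against 9.79% of all 13683 tested genes. All 10 members that fell were gamma genes (background for lower calls 6.46%), and the 6 that rose were 5 beta genes and Pcdhac2 (background for higher calls 3.33%). Without the block no member of 49 was called by edgeR, and 0.0585% of all genes were called. In that fit 13 members had an unadjusted p under 0.05, as did 795 of all 13683 tested genes. DESeq2 without the block called 6 of 54 tested members, all lower, and 242 of all 15107 tested genes. In what follows "rose" and "fell" refer to the test with the block, and adjusted p-values are those of that test unless stated otherwise. Because these are bulk samples, fewer cells of a type and less RNA per cell cannot be told apart.

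**Figure D2:**
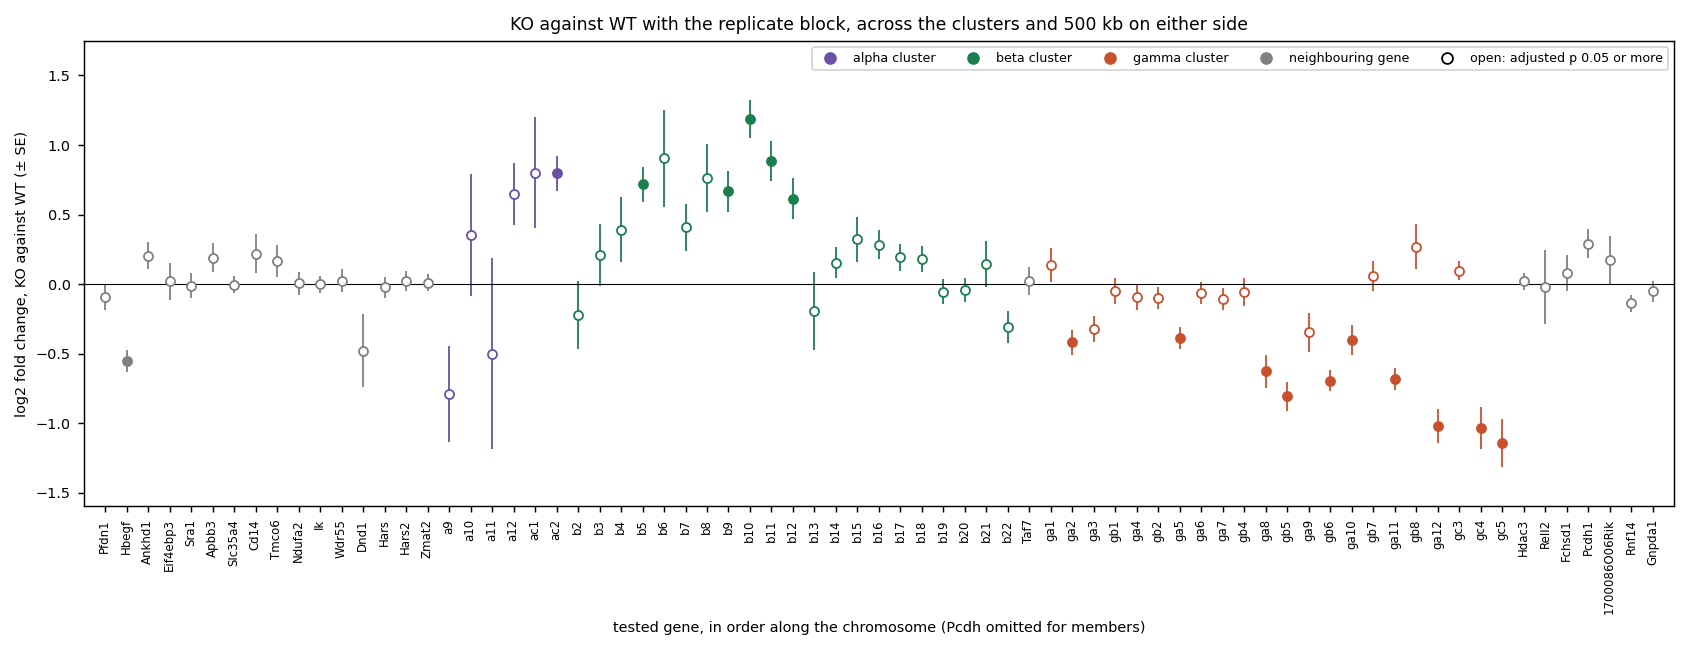
Log2 difference of KO against WT with its standard error for each tested member and the tested neighbouring genes, in chromosomal order, from the edgeR fit with the replicate block; filled points passed an adjusted p of 0.05. Beta genes sit mostly above 0, with the called ones between Pcdhb5 and Pcdhb12, and gamma genes mostly below, with Pcdhga12, Pcdhgc4 and Pcdhgc5 lowest and Pcdhgc3 near 0.

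The gamma sum was lower in KO without Pcdhgc3 but not with it. The 21 gamma genes other than Pcdhgc3 together were at 370, 405 and 375 CPM in WT and at 269, 322 and 324 CPM in KO, with no overlap, a log2 ratio of means of -0.33. The whole gamma cluster, dominated by Pcdhgc3, was at 1930 ± 130 CPM (SD, n = 3) in WT and 1961 ± 193 in KO, a log2 ratio of 0.02. The beta sum was at 127 ± 37.2 and 146 ± 42.8 CPM, within the spread of the replicates, and the alpha sum at 17.4 ± 2.64 and 26.8 ± 7.16 CPM. The median log2 difference with the block was -0.33 over gamma genes (18 of 22 negative), 0.28 over beta genes (16 of 21 positive) and 0.50 over alpha genes (4 of 6 positive), beside 0.0068 over all tested genes.

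The gamma genes that fell were 6 gamma A genes (Pcdhga2, Pcdhga5, Pcdhga8, Pcdhga10, Pcdhga11 and Pcdhga12), the gamma B genes Pcdhgb5 and Pcdhgb6, and the C-type genes Pcdhgc4 and Pcdhgc5. Their log2 differences lay between -1.14 and -0.39, with adjusted p from 0.000388 to 0.0480 (0.114 to 0.927 without the block). Each was lower in KO than in WT in all 3 same-numbered pairs, and in 9 of the 10, all but Pcdhga2, every KO library was below every WT library. The 10 genes were chosen by the test on the same libraries, so this order describes them and is not further support. Over all tested members, 13 of 49 (26.5%) had groups that did not overlap, against 11.2% of all tested genes. Of these, 10 were lower in every KO library (background 6.71%) and 3, Pcdhac1, Pcdhac2 and Pcdhb6, were higher (background 4.49%).

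Among the gamma C-type genes, Pcdhgc4 is the isoform needed for survival of many interneurons and for postnatal life in mice. It was at 9.61, 8.53 and 6.40 CPM in WT and at 4.45, 3.32 and 4.13 CPM in KO. All KO values lay below all WT values, and the log2 difference was -1.04 ± 0.152 (SE; adjusted p = 0.00218). Pcdhgc5, which has been linked to GABAergic synapses, was at 5.04, 8.78 and 6.44 CPM in WT and at 2.19, 2.97 and 4.04 CPM in KO. It fell by 1.14 ± 0.174 on the log2 scale (adjusted p = 0.00277), again without overlap. Thus 2 of 3 gamma C-type genes fell while Pcdhgc3, between Pcdhga12 and Pcdhgc4 on the chromosome, did not pass the test.

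Of the alternate gamma genes, Pcdhga12, the last gamma A gene, had the greatest decrease. Its values were 9.05, 9.02 and 7.16 CPM in WT and 4.33, 4.05 and 4.01 CPM in KO, with a log2 difference of -1.02 ± 0.124 (adjusted p = 0.000745). Pcdhgb6, the highest of the alternate genes, was at 48.5, 46.5 and 47.3 CPM in WT and at 27.5, 29.6 and 30.8 CPM in KO. The 3 libraries of each genotype lay close together, and the log2 difference of -0.70 ± 0.0752 had the smallest adjusted p among the members (0.000388, and 0.114 without the block).

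Pcdhga11 was at 37.2, 32.999 and 31.2 CPM in WT and at 21.8, 20.3 and 21.05 CPM in KO, a log2 difference of -0.68 ± 0.0787 (adjusted p = 0.000566). Pcdhgb5 was at 14.7, 14.1 and 11.7 CPM in WT and at 8.78, 7.31 and 7.05 CPM in KO, a log2 difference of -0.81 ± 0.103 (adjusted p = 0.000997). In both genes the highest KO library was well under the lowest WT library. Pcdhga8 had the log2 difference -0.63 ± 0.116, and the smaller decreases were those of Pcdhga2 (-0.42 ± 0.0907), Pcdhga10 (-0.40 ± 0.110) and Pcdhga5 (-0.39 ± 0.0808). Calls of Pcdhga2, Pcdhga5 and Pcdhga10 were lost when number 2 was left out of both groups, and those of Pcdhga5 and Pcdhga10 when number 1 was left out.

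Other gamma genes did not pass the test. Pcdhga1, the first gene of the cluster, was at 8.85, 9.89 and 9.30 CPM in WT and at 7.69, 11.95 and 11.7 CPM in KO, with a log2 difference of 0.14 (adjusted p = 0.560), and the groups overlapped. Pcdhga3 had non-overlapping groups (34.4 to 39.97 CPM in WT, 23.2 to 32.8 CPM in KO) but an adjusted p of 0.0575. Pcdhga6 had a log2 difference of -0.07, Pcdhgb2 of -0.10, Pcdhgb7 of 0.06 and Pcdhgb8 of 0.27, all with overlapping groups. The log2 differences of the remaining uncalled gamma A and B genes, Pcdhgb1, Pcdhga4, Pcdhga7, Pcdhgb4 and Pcdhga9, ran from -0.35 (Pcdhga9) to -0.05 (Pcdhgb1). Pcdhgb7 and Pcdhgb8 lie between genes that fell, Pcdhga10, Pcdhga11 and Pcdhga12.

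The beta genes that rose were Pcdhb5, Pcdhb9, Pcdhb10, Pcdhb11 and Pcdhb12, 5 of 21 tested (23.8%, background for higher calls 3.33%). Pcdhb10 changed most. It was at 1.83, 3.62 and 3.92 CPM in WT and at 3.75, 9.43 and 8.47 CPM in KO. KO 1 lay within the WT range, while KO 2 and KO 3 lay above it, and each KO library was above the WT library of the same number. The log2 difference was 1.19 ± 0.135 (adjusted p = 0.000507, and 0.749 without the block). Per length, Pcdhb10 was at 0.191 to 0.221 of Pcdhb20, the highest beta gene, in WT and at 0.423 to 0.560 in KO, without overlap. Pcdhb10 was picked as the beta gene with the largest difference, so this ratio describes it and is not further support.

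Pcdhb11 was at 3.001, 4.44 and 5.23 CPM in WT and at 4.40, 10.1 and 9.57 CPM in KO, a log2 difference of 0.89 ± 0.143 (adjusted p = 0.00387). Pcdhb5 was at 3.98, 5.55 and 5.47 CPM in WT and at 5.52, 10.3 and 9.25 CPM in KO, a log2 difference of 0.72 ± 0.126 (adjusted p = 0.00607). As with Pcdhb10, KO 1 in both genes lay within the WT range and the others above it. Pcdhb9 had a log2 difference of 0.67 ± 0.147 (adjusted p = 0.0187) and Pcdhb12 of 0.61 ± 0.149 (adjusted p = 0.0300). Both lost the call when number 2 or number 3 was left out of both groups, and Pcdhb12 also when number 1 was.

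The beta genes with the highest levels did not pass the test. Pcdhb20 was at 11.9, 20.4 and 22.2 CPM in WT and at 11.1, 21.0 and 21.1 CPM in KO, with a log2 difference of -0.04 (adjusted p = 0.809). In both genotypes the number 1 library was the lowest. Pcdhb18 had a log2 difference of 0.18, Pcdhb17 of 0.19, Pcdhb13 of -0.20 and Pcdhb22, the last gene, of -0.31 (adjusted p = 0.132). The 16 uncalled beta genes ranged from this value to 0.90 for Pcdhb6. Pcdhb6 was at 0.217, 0.372 and 0.509 CPM in WT and at 0.657, 0.589 and 0.773 CPM in KO, which did not overlap, but its SE was 0.349 and the adjusted p 0.145. Pcdhb7 and Pcdhb8, which lie among the genes that rose, had log2 differences of 0.41 and 0.76 with adjusted p of 0.175 and 0.0809.

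In the alpha cluster 1 of 6 tested genes was called (background 9.79%). Pcdhac2 was at 10.7, 15.4 and 10.96 CPM in WT and at 15.4, 24.4 and 25.2 CPM in KO. Every KO library was above every WT library, by less than 0.01 CPM for KO 1 against WT 2, and the log2 difference was 0.80 ± 0.126 (adjusted p = 0.00347, and 0.561 without the block). Pcdhac1 had a log2 difference of 0.80 ± 0.398 (adjusted p = 0.261), Pcdha12 of 0.65 ± 0.225 (adjusted p = 0.107), Pcdha10 of 0.35, Pcdha11 of -0.50 and Pcdha9 of -0.79 ± 0.346 (adjusted p = 0.199). These genes had under 4 CPM in every library and their standard errors were large.

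**Figure D3:**
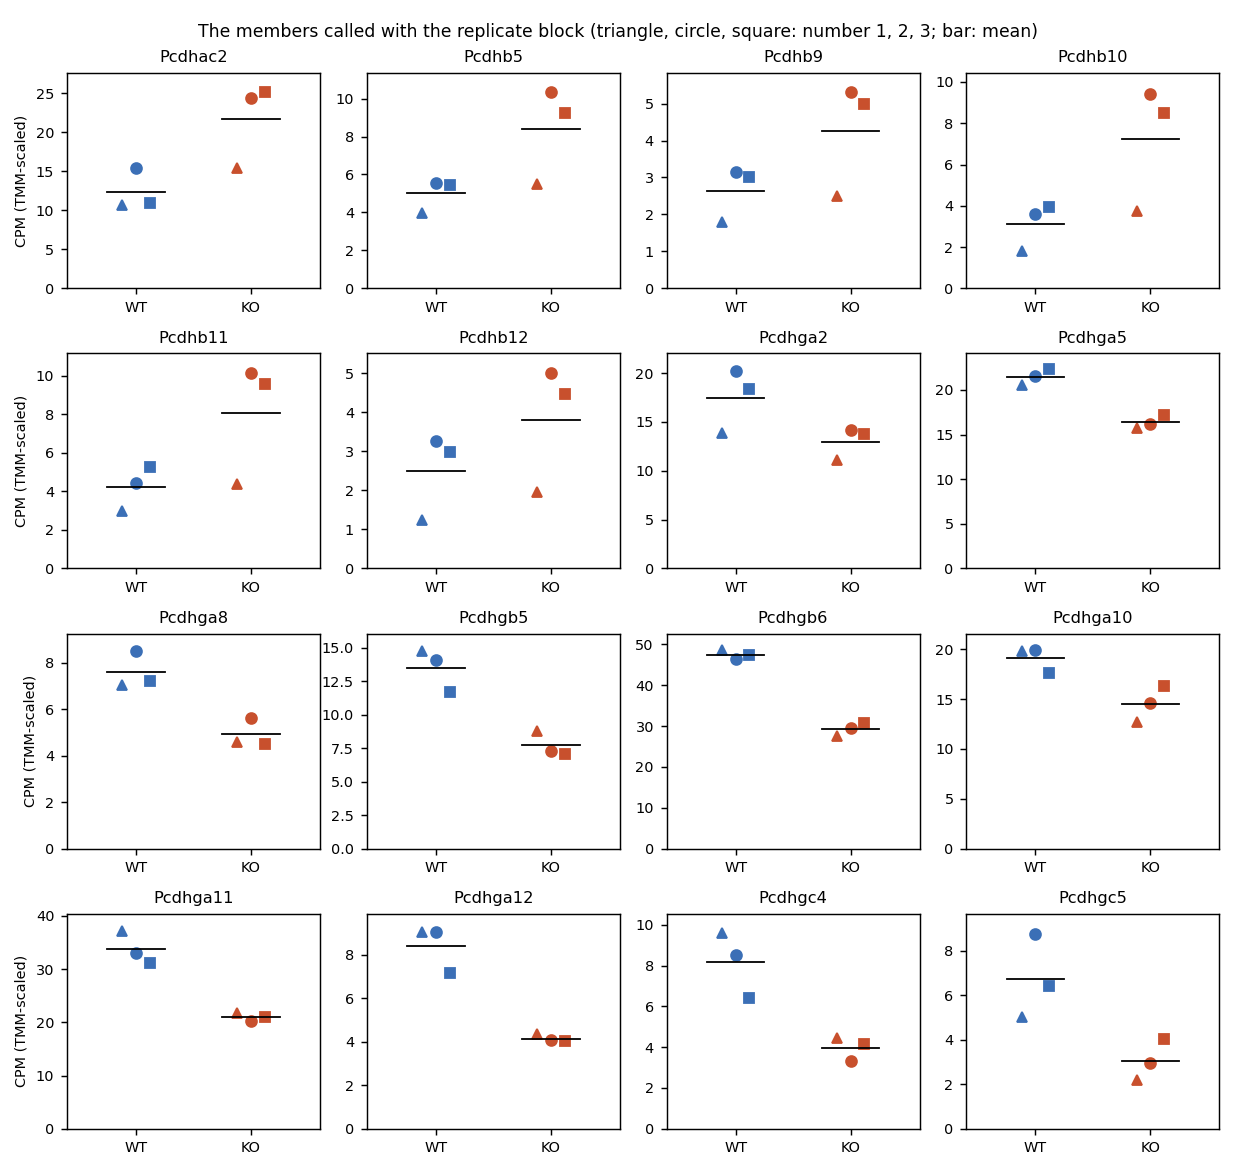
TMM-scaled CPM of the 16 members called with the replicate block, on axes that start at 0; triangles, circles and squares are libraries numbered 1, 2 and 3, and bars are group means (n = 3). In the 5 beta genes that rose the triangles lie lowest in both groups, and in 9 of the 10 gamma genes that fell all KO points lie below all WT points.

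In the beta cluster the differences were larger in the upstream genes. The first 11 beta genes together were at 16.1, 25.4 and 26.3 CPM in WT and at 22.8, 46.6 and 43.5 CPM in KO, with log2 ratios of 0.50, 0.87 and 0.72 in the same-numbered pairs. The last 11 beta genes were at 68.6, 130.4 and 113 CPM in WT and at 73.8, 127 and 124 CPM in KO, with log2 ratios of 0.10, -0.04 and 0.14. Called beta genes numbered 4 of 10 tested (40%) in the first 11 and 1 of 11 (9.09%) in the last 11, beside 9.79% of all tested genes. The cut between these parts separates Pcdhb11 from its neighbour Pcdhb12, and both rose. Over the 21 tested beta genes, chromosomal order and log2 difference had a Spearman correlation of -0.50, ranging from -0.59 to -0.29 over the 3 numbered pairs. Since level changed along the same axis, position and level cannot be told apart here.

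In the gamma cluster the decreases lay mostly toward the downstream end. Of the first 11 genes 3 fell (27.3%), and of the last 11 genes 7 fell (63.6%), beside 6.46% of all tested genes. Order and log2 difference had a Spearman correlation of -0.37 over the whole gamma cluster (22 genes) and -0.31 over gamma A and B together (19 genes). Within gamma A it was -0.65 (12 genes), from 0.14 for Pcdhga1 to -1.02 for Pcdhga12, and within gamma B it had the opposite sign, 0.36 (7 genes). The gamma A value ranged from -0.61 to -0.55 over the 3 numbered pairs. These correlations are across genes of 1 cluster that share constant exons and libraries, and are given as descriptions.

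Most beta genes were also lower in libraries numbered 1. In libraries numbered 1 compared with those numbered 2 and 3, 28 of 49 members differed (57.1%, near the 57.6% of all tested genes). All 28 were lower in number 1, where 29.4% of all tested genes were called lower and 28.2% higher. They were 18 of 21 beta genes, 8 of 22 gamma genes and 2 of 6 alpha genes. The median log2 difference was -0.76 over beta genes, -0.11 over gamma genes and -0.38 over alpha genes, beside -0.01 over all genes. The count fell to 18 when KO 1 was left out. Some lists of cell type markers differed in the same direction. Of 10 astrocyte markers 7 were lower in number 1 and 1 higher (median log2 difference -1.49). Of 15 neural stem cell markers 10 were lower and 1 higher (-0.30), and of 10 oligodendrocyte lineage markers 7 were lower and 0 higher (-0.59). Gfap (-4.52), Aqp4 (-3.41) and Hes5 (-3.71) were among the lower ones. Of 5 tested intermediate progenitor markers 4 were lower and 0 higher. Neuron markers were split, with 5 of 17 tested higher and 4 lower (-0.37), and of 6 tested mesenchymal markers 1 was higher and 2 lower. Their part in the lower beta levels was not tested.

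The beta sum shows this in values. WT 1 held 84.8 CPM and KO 1 held 96.7 CPM, with 139 to 174 CPM in the other libraries. The number 1 libraries of either genotype were below all others, and the gap exceeded that between genotypes. Of the 16 members called between KO and WT, 8 were also lower in number 1: Pcdhac2, the 5 beta genes, Pcdhga2 and Pcdhgc5. In the gamma A genes the number difference ran with position, with a Spearman correlation of 0.73 (12 genes). Pcdhga1, the first, was at -0.36 and Pcdhga12, the last, at 0.14, within a range from -0.61 (Pcdhga6) to 0.18 (Pcdhga9). The gamma B genes showed no such run (-0.07, 7 genes), and gamma A and B pooled gave 0.65 (19 genes). What the number stands for is not given in the labels.

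**Figure D4:**
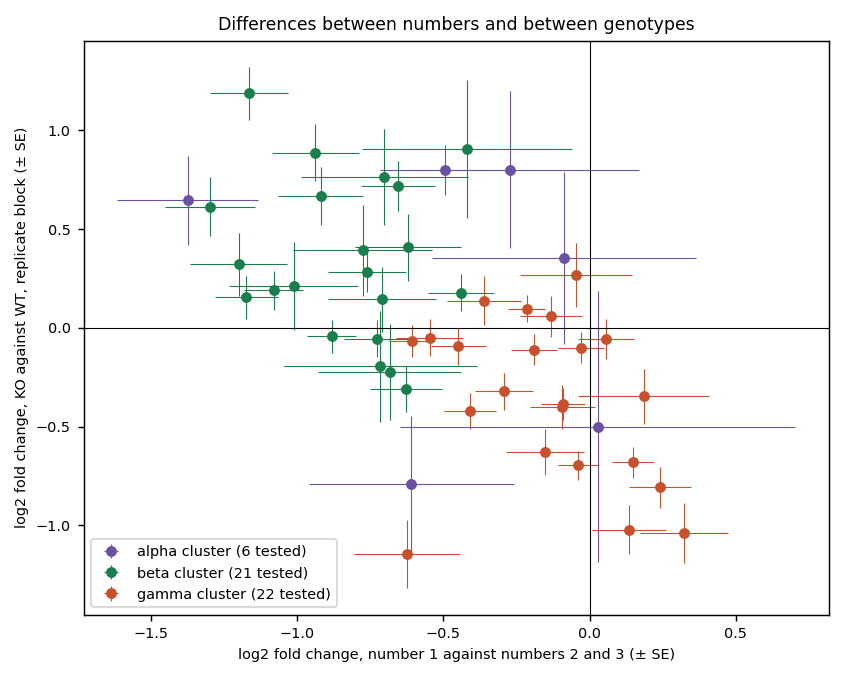
For each tested member, the log2 difference of number 1 against numbers 2 and 3 (x axis) against that of KO against WT with the replicate block (y axis), coloured by cluster. Bars are standard errors. Beta genes lie left of 0 and mostly above it, whereas Pcdhgb5, Pcdhga12 and Pcdhgc4 lie right of 0 and well below it and Pcdhgc5 lies at -0.62 on the x axis.

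With numbers 2 and 3 alone, 11 of 49 members were called (background 5.4%), and 11 were called with KO 2 and KO 3 summed as 1 library and number 1 as the block (background 4.94%), 7 of them lower (3.8%) and 4 higher (1.13%). The 16 members had the same sign in both, but they were chosen by the block fit on these same libraries, so this is not independent support. DESeq2 with the block called 13 members (background 8.49%).

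Of 32 genes within 500 kb on either side of the clusters 23 were tested, and 1 was called, a small list beside a background of 9.79%. It was Hbegf, which encodes a ligand of the EGF receptor (-0.56 ± 0.0784, adjusted p = 0.00175). Its difference without the block ranged from -1.23 to 0.13 when 1 library was left out, being positive without WT 1. The median log2 difference was 0.01 before alpha and 0.02 after gamma. Taf7, a general transcription factor gene between the beta and gamma clusters, was at 10.5 ± 0.881 CPM in WT, against 10.7 ± 0.316 CPM in KO (log2 difference 0.02, adjusted p = 0.924).

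Of 34 chromatin and cohesin genes listed as possible regulators of these clusters, edgeR with the block called 1 between KO and WT (background 9.79%). In that fit 10 had an unadjusted p under 0.05, as did 3246 of all 13683 tested genes. DESeq2 with the block called 2 of them (background 8.49%). Uhrf1, which maintains DNA methylation at replication, rose by 0.36 ± 0.0747 on the log2 scale (adjusted p = 0.0142, and 0.0831 with KO 2 and KO 3 summed, where the call was lost). In WT and KO, Ctcf averaged 158 ± 17.0 and 169 ± 11.2 CPM (SD, n = 3) and Rad21, a cohesin subunit gene, 427 ± 72.7 and 473 ± 38.2 CPM, and neither passed the test (adjusted p = 0.365 and 0.217). Between number 1 and the others, 20 of the 34 were higher in number 1 (background 28.2%) and 2 lower (background 29.4%). Their part in the protocadherin differences was not tested.

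Among 20 tested genes for binding and signalling partners of the proteins, 1 was called (background 9.79%), Ptk2b, the kinase PYK2 that the cytoplasmic tails inhibit. It was at 0.674, 2.88 and 3.07 CPM in WT and at 0.316, 1.01 and 1.07 CPM in KO, a log2 difference of -1.43 ± 0.225 (adjusted p = 0.00340). Its KO 2 and KO 3 values lay above WT 1, so the groups overlapped. Of 9 tested genes of the proteases that cleave the proteins, 0 were called by edgeR with the block (background 9.79%). In that fit 0 had an unadjusted p under 0.05, against 3246 of all 13683 tested genes. DESeq2 with the block also called 0 of them (background 8.49%). Adam10 and the gamma-secretase subunit gene Ncstn were the highest of that list.

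The non-clustered protocadherins lie elsewhere in the genome or outside the clusters and have their own promoters. Of 11 tested, 1 rose (background 3.33%) and 2 fell (background 6.46%), a small list. Pcdh15, a component of hair cell tip links, rose by 1.26 ± 0.110 on the log2 scale (16.2 ± 2.89 CPM in WT, 38.4 ± 3.14 CPM in KO; adjusted p = 0.000122). Pcdh17 fell by 1.08 ± 0.125 (33.6 ± 6.77 and 15.7 ± 1.06 CPM; adjusted p = 0.000644) and Pcdh19 fell by 0.38 ± 0.0954 (adjusted p = 0.0352), a call that was lost with KO 2 and KO 3 summed (0.139) and with numbers 2 and 3 alone (0.280).

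Markers of differentiated cells also moved between the groups. Of 17 tested neuron markers, 7 fell (background 6.46%) and 1 rose (background 3.33%), with a median log2 difference of -0.38. Summing KO 2 and KO 3 left 3 lower and 1 higher call (background 3.8% and 1.13%). Numbers 2 and 3 alone gave 3 lower and 0 higher (background 5.4% for both directions together). Syt1, a calcium sensor of synaptic vesicles, went from 74.9 ± 29.1 CPM (SD, n = 3) in WT to 39.9 ± 16.6 CPM in KO and fell by 0.93 ± 0.0797 on the log2 scale. Celf4 fell by 1.09, Myt1l fell by 2.46, while Gad1, the GABA-synthesizing enzyme, rose by 0.93. The Gad1 difference ranged from -0.088 to 1.99 without the block when 1 library was left out, being negative without KO 1. The summed level of the neuron list was 1044 to 1387 CPM in WT and 1103 to 1295 CPM in KO, so it overlapped, and Slc17a6 was at 0. The part of neuronal RNA in the protocadherin differences was not tested.

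Over all tested genes 6.46% fell and 3.33% rose, the background for the counts with the block in this paragraph. Of 15 neural stem cell markers, Hopx fell by 1.10, Prom1 fell by 1.35, and Hes5 rose by 0.32. The Hes5 call was lost with KO 2 and KO 3 summed (adjusted p = 0.0583) and with numbers 2 and 3 alone (0.0692). Of 10 astrocyte markers 6 fell and 2 rose, with summed levels of 906 to 2519 CPM in WT and 1068 to 2771 CPM in KO. The fit that sums KO 2 and KO 3 called 5 astrocyte markers lower and 1 higher (background 3.8% and 1.13%). Numbers 2 and 3 alone gave 4 lower and 1 higher (background 5.4% for both directions together). Of 10 oligodendrocyte lineage markers 2 rose and 2 fell (3572 to 4334 and 3554 to 3800 CPM), and of 6 mesenchymal markers 2 rose and 2 fell (100 to 168 and 104 to 109 CPM), with Dcn at 0. Of 5 tested intermediate progenitor markers Hes6 fell by 0.38, a call lost in the same fits (0.0526 and 0.0824), with summed levels of 439 to 730 CPM in WT and 336 to 681 CPM in KO, and Neurog1 was at 0.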

How the data were processed

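RNA was measured in 3 WT and 3 KO libraries. Raw counts, whole numbers for each of 24503 gene symbols, were deposited by the authors. Per the submitters' processing notes, FastQC, cutadapt, Trim Galore, Bowtie2, RSEM and mm10 were used. The sources used here give no versions, annotation or strand setting.

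Counts were scaled with TMM and tested with edgeR 4.0.16 in R 4.3.3 (glmQLFit robust, two-sided glmQLFTest, Benjamini-Hochberg over all tested genes) after filterByExpr by group (minimum count 10), which left 13683 genes. SE is the log2 difference divided by the square root of F. The labels do not state that numbers pair samples across groups, and the block was added because of the data. The correlations of deviations from group means were 0.854, 0.604 and 0.580 for pairs 1, 2 and 3, all over 0.1. However, WT 2 with KO 3 (0.633) and WT 3 with KO 2 (0.578) were as high. The data thus set number 1 apart but do not pair numbers 2 and 3. Both fits are therefore given; the one without the block is the reference design. DESeq2 1.42.0, other scalings, no filter and leaving out libraries were alternatives. The fits with and without the block were also run on simulated data. Those data held a number 1 shift common to both genotypes and no difference between numbers 2 and 3. They assume what the block fits and cannot show that it suits these libraries.

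The replicates differed beyond sampling noise, KO 2 and KO 3 by far the least, and were kept as separate samples. Between KO 2 and KO 3 the median chi-square of counts per gene was 1.02, and 19.5% of genes exceeded its 95% limit. In the other pairs within a genotype the median was 5.25 to 34.5, and 55.6 to 80.8% of genes exceeded it. Whether KO 2 and KO 3 are independent samples is not stated, so a fit with both summed is also given. Lengths came from GENCODE vM21. Positions of Pcdha10 and Pcdha11 were matched by RefSeq accession. Members, gene lists and tests were chosen with earlier results of these data known. Named genes were all called members, C-type genes, the 3 highest of each subgroup by RPKM, the 2 with the largest differences per direction and cluster, and up to 4 called genes per list (the highest where fewer than 2 were called). Ctcf, Rad21, Aqp4, Pcdhb6 to Pcdhb8, Pcdhga9, Pcdhgb1 and Pcdhgb8 were named after their values were seen. No sequences of members are shown.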

Additional observations from a re-analysis of the deposited data

How the results depend on the processing

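Without the block edgeR called 8 of all genes (4 higher, 4 lower; 2 and 4 with upper-quartile scaling) and 0 to 21 with 1 library left out, and 0 members in each of those fits. The replicate block gave 1340 genes and 16 members, and number 1 as the block 1445 and 16. The block gave 1251 genes and 15 members with RLE scaling, 1310 and 17 with upper-quartile scaling (24.96% of the genes higher, 34.0% with TMM), and 1661 and 17 with no filter. With 1 number left out of both groups it gave 1037, 1248 and 1456 genes and 15, 12 and 15 members (without number 1, 2 and 3). DESeq2 gave 242 genes and 6 members, and 1196 and 13 with the block. Numbers 2 and 3 alone gave 743 and 11, and KO 2 and KO 3 summed 688 and 11. Of the 16 members, RLE scaling lost Pcdhga10, numbers 2 and 3 alone lost Pcdhb12, Pcdhga2, Pcdhga5, Pcdhga8 and Pcdhga10, the summed fit lost Pcdhb9, Pcdhb12, Pcdhga2, Pcdhga5 and Pcdhga10, and DESeq2 with the block lost Pcdhb9, Pcdhb12 and Pcdhga10; the cause was not tested. The members lower in number 1 numbered 18 to 29 with 1 library left out. The block fits with a number left out, RLE or upper-quartile scaling, or no filter were chosen after seeing the data.

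With 1 library left out, the sign changed for some members that were not called: the log2 difference without the block ranged from -0.48 to 0.14 for Pcdhb13 (positive without WT 2), -0.057 to 0.49 for Pcdhb17 (negative without WT 1), -0.26 to 0.21 for Pcdhb20 (positive without WT 2, WT 3 or KO 1), -0.19 to 0.15 for Pcdhga6 (the same libraries), -0.0339 to 0.16 for Pcdhgb7 (negative without KO 3) and -0.028 to 0.083 for Taf7. It ranged from -0.088 to 1.99 for Gad1 (negative without KO 1) and from -1.23 to 0.13 for Hbegf (positive without WT 1). In the block fit Pcdha10 was at -0.15 and Taf7 at -0.026 without number 2, Pcdha11 at 0.36 and Pcdhgb7 at -0.047 without number 3, and Pcdhga6 at 0.0063 without number 1 and 0.0061 with numbers 2 and 3 alone. Upper-quartile scaling gave -0.011 for Taf7, and -0.00776 with the block. For members near 1 CPM, depth limits the precision.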
